A study of Homo sapiens with 40 samples.

Results

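The 49 genes described here act in the cell cycle and DNA replication. They were followed, out of 60504 genes in the expression table, across 40 RNA-seq libraries of human microglia-like cells. They were chosen by name, through the Ensembl identifiers of their symbols, but with earlier results of these data known. The starting cells were H9 (WA09), an established line of human embryonic stem cells, and H9 lines edited with CRISPR/Cas9 at genes linked to Alzheimer's disease. Unedited H9 (WT) gave 7 libraries, the TREM2 knockout (TREM2-KO) 8, the homozygous TREM2 substitution R47H 7, the SORL1 knockout (SORL1-KO, listed among the edits as R744X) 7, and the homozygous SORL1 substitution A528T 7. A CD33 variant (CD33-SNP) and an INPP5D variant (INPP5D-SNP, in which the heterozygous site of H9 was converted to A on both alleles) gave 2 libraries each. All groups were treated alike: haematopoietic progenitors bearing CD43 were collected at day 11 and grown for 28 days with IL-34 at 100 ng/mL, TGF-β1 at 50 ng/mL and M-CSF at 25 ng/mL, with CD200 and CX3CL1 at 100 ng/mL each for the last 3 days. Whether the repeats within a group are different clones, cultures or only repeat runs is not in the labels, so a p-value here measures the spread of these libraries alone, and that spread may be technical.

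The cell cycle is driven by cyclin-dependent kinases. D-type cyclins with CDK4 and CDK6 phosphorylate the retinoblastoma protein in G1 and free E2F factors, which raise the genes of DNA replication, among them the MCM helicase that is loaded on origins and the enzymes that make nucleotides. Later, cyclins A and B with CDK1 start mitosis, the spindle checkpoint holds chromosomes until they are attached, and the proteasome then removes the cyclins. Microglia renew themselves by division in the brain and depend on CSF1R, the receptor for M-CSF and IL-34, for growth and survival.

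The promoters of several members are printed to show the letters that replication and mitotic genes carry near their starts. Promoter sequences came from RefSeq (build GRCh38.p14), which held 37 of the 49 members and 27305 promoters in all, each running from 250 bases before to 50 bases after the start. Each was searched on both strands for CCAAT, for the cell cycle homology region TTTGAA, and for the E2F letters TTTGGCGC, TTTGCCGC, TTTCGCGC or TTTCCCGC. None of these motifs contains another, but E2F matches on opposite strands can overlap. The E2F letters stood in 7 of 7 promoters of the licensing and fork genes and in 3.325% of all promoters. TTTGAA stood in 0 of those 7 promoters, in 3 of 7 of the mitotic cyclins and kinases, in 2 of 3 of the checkpoint genes, in 3 of 5 of the kinesins and spindle genes, and in 15.43% of all promoters. CCAAT stood in 27 of the 37 member promoters and in 35.7% of all promoters. The wider lists followed the same split, with TTTGAA in 65.45% of 55 promoters of other G2 and mitosis genes and in 2.5% of 40 promoters of other replication genes. The E2F letters stood in 35% of those 40. A match is a description of letters and shows no binding. The 200 bases before the first listed RefSeq start of 3 mitotic members that differed in TREM2-KO and of 2 licensing members are given here 5′ to 3′ on the strand of the gene, with every match in capitals (ATTGG and TTCAAA are the same motifs on the other strand).
CCNB2, chr15:59104946-59105145, plus strand: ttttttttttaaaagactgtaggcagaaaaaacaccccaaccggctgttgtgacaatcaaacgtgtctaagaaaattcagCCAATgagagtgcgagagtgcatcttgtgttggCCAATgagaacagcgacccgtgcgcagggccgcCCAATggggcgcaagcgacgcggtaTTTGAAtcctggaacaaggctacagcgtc
TOP2A, chr17:40417897-40418096, minus strand: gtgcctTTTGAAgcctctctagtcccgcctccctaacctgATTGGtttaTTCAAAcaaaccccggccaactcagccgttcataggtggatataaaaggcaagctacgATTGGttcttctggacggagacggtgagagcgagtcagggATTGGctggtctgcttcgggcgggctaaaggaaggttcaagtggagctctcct
CENPA, chr2:26785856-26786055, plus strand: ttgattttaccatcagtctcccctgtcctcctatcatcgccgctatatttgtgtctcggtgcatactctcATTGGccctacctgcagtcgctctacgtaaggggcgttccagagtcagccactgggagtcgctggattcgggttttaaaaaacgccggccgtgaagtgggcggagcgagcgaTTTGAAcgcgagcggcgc
MCM6, chr2:135876444-135876643, minus strand: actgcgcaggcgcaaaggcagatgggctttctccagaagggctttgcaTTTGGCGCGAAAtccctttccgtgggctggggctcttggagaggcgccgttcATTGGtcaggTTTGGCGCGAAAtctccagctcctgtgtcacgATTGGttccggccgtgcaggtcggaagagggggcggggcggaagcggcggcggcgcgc
MCM3, chr6:52284743-52284942, minus strand: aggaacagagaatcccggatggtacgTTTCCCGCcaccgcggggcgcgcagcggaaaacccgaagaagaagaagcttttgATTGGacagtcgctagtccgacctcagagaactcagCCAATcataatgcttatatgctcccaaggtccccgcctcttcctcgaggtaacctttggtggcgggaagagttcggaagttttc
CCNB2 and CENPA each held a TTTGAA within the last 30 bases before the start, TOP2A held 2 of them and 3 CCAAT matches, and the MCM promoters held E2F and CCAAT letters with no TTTGAA. The printed mitotic promoters do not stand for all members that differed in TREM2-KO. Those of STMN1, KIF20A and CENPE, which also differed, held no TTTGAA, and that of CENPE held none of the motifs searched. HMGB2, which differed too, had no promoter listed.

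The values were TPM, transcript levels scaled for gene length and to the same total in each library, which keep no depth. Between 13208 and 14086 genes reached 1 TPM per library, and the tests covered the 14855 genes that reached this level in 7 or more libraries. TREM2 ran from 24.62 to 46.47 TPM in TREM2-KO and from 294.54 to 585.37 in WT, and SORL1 from 12.55 to 21.49 TPM in SORL1-KO and from 18.58 to 43.21 in WT. The microglial and macrophage genes AIF1, CSF1R and CX3CR1 were at 816.78, 600.33 and 98.8 TPM or more in every library, 15 of 16 listed markers of these cells were kept, and SALL1, a defining microglial factor, did not pass 0.47 TPM. The stem cell factors POU5F1 and NANOG and the progenitor marker CD34 stayed at or under 0.36 TPM. Endothelial and stromal markers varied: the sum of 14 such genes ran from 189.8 to 3232 TPM in WT and from 844.1 to 2234 in INPP5D-SNP but from 134.4 to 465.1 in the other 5 groups. None of the 14 was at 0 in every library of a group. In those 5 groups PECAM1 was the highest of the 14, with group means of 144.1 to 264.8 TPM, while those of COL1A1 ran from 6.331 to 17.93. Over all tested genes, TREM2-KO library 8, SORL1-KO library 7 and SORL1-A528T library 7 stood apart from the others of their groups. The SD of the log2 difference from another library of the group, as a median over those libraries, was 0.80, 0.79 and 0.72 in these, and the next was TREM2-KO library 4 at 0.70.

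All 49 cell cycle genes passed the filter on low values and reached 1 TPM in all 40 libraries. The chromatin protein HMGB1 averaged 527.5 TPM ± 43.5 (SD, n = 7) in WT, higher than 98.32% of tested genes, and the CDK inhibitor CDKN1A (p21) averaged 376.6 ± 85.7. The tubulin regulator STMN1 averaged 260.3 ± 32.6 TPM, and PCNA, the sliding clamp of the replication fork, 220.4 ± 23.2. MKI67, the Ki-67 proliferation antigen, averaged 67.5 ± 2.17 TPM and was higher than 85.69% of tested genes, while CDC25C, a phosphatase that activates CDK1, was at 5.48 ± 0.509 TPM. The summed TPM of the 49 genes ran from 3788 to 4215 in WT libraries, from 3072 to 5237 in TREM2-KO, from 3428 to 4447 in TREM2-R47H, from 2111 to 4110 in SORL1-KO and from 2315 to 4286 in SORL1-A528T. The 2 CD33-SNP libraries stood at 3627 and 3795 and the 2 INPP5D-SNP libraries at 3268 and 3333. TREM2-KO had the highest group mean for 33 of the 49 genes, and INPP5D-SNP the lowest for 32. These counts have no share over all tested genes beside them, and the INPP5D-SNP means rest on 2 libraries. In bulk RNA a change in the share of dividing cells and a change in RNA per cell cannot be told apart.

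**Figure D1:**
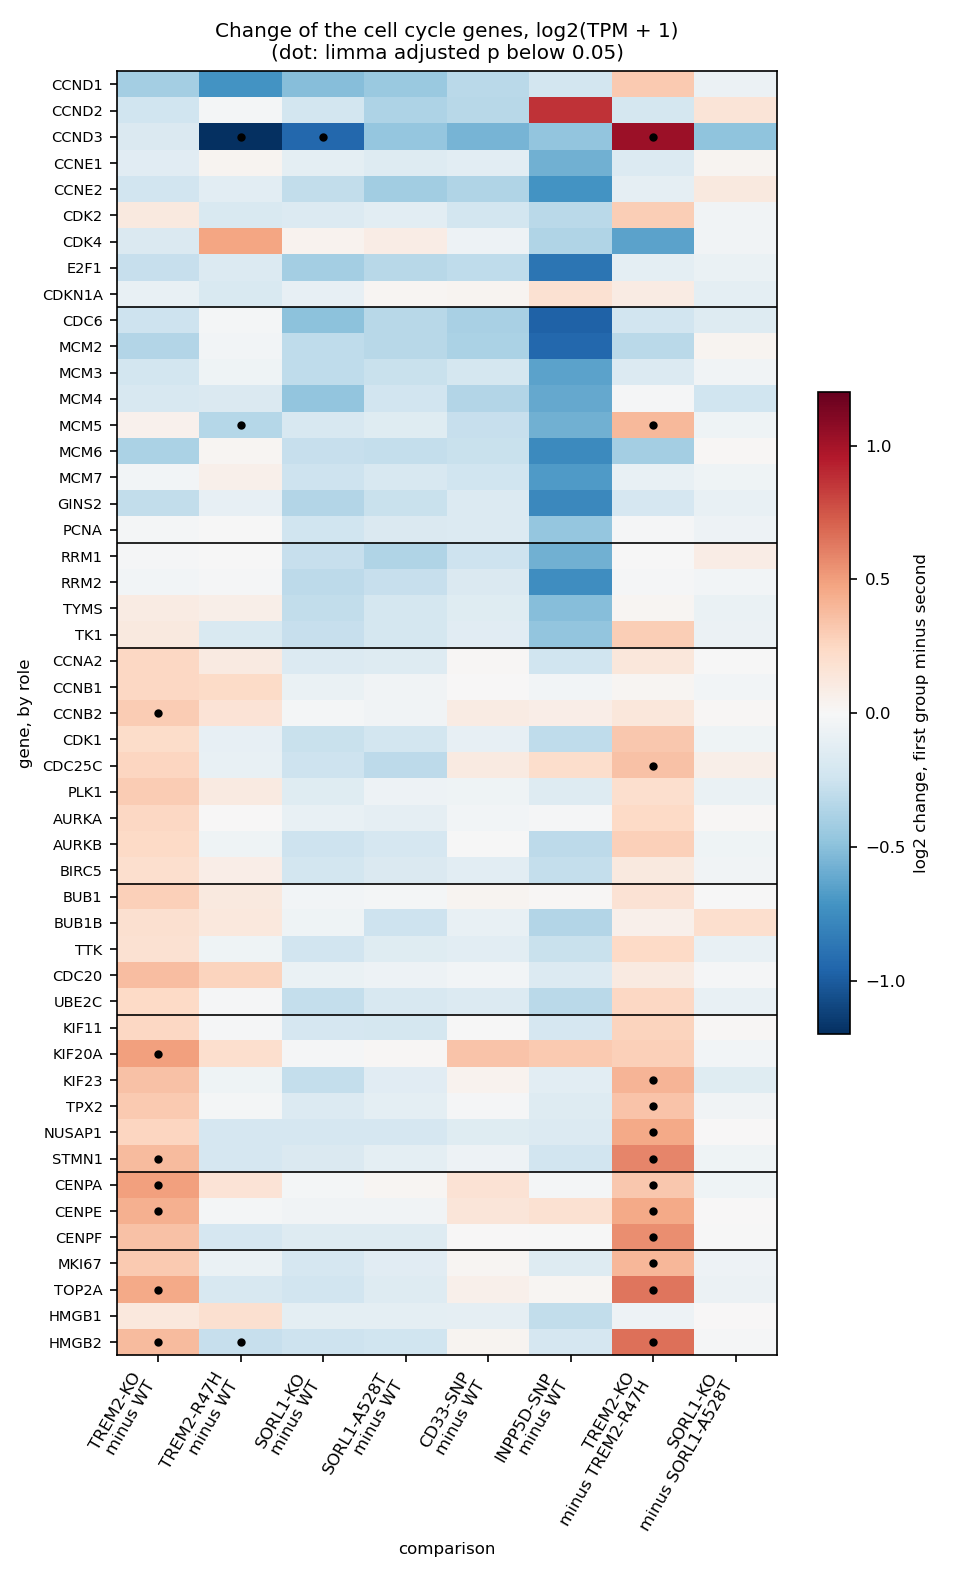
Heat map of the change in each of the 49 genes (rows, ordered by role) in 8 comparisons (columns). Colour gives the log2 change on the log2(TPM + 1) scale and dots mark genes called at a Benjamini-Hochberg adjusted p below 0.05 (limma). The TREM2-KO columns hold 7 dots against WT and 13 against TREM2-R47H, all of them mitotic or chromatin genes except CCND3 and MCM5 against TREM2-R47H.

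A set of mitotic genes had raised levels in the TREM2 knockout, while no gene of G1, licensing or nucleotide supply was called. In the comparison of TREM2-KO with WT, 7 members rose and 0 fell at an adjusted p below 0.05, against 1.61% of all tested genes called in either direction and 0.283% called higher. All 7 act in mitosis or on the chromatin of dividing cells. All changes are given on the log2(TPM + 1) scale, which understates the change of low genes, from 1 limma fit over the 40 libraries with Benjamini-Hochberg adjustment over the 14855 genes.

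Centromere genes showed the highest median change of the roles (0.43 over 3 genes). CENPA (chr2:26764289-26801067 in GENCODE v29, build GRCh38, plus strand), the histone H3 variant of centromeres, ran from 16.03 to 20.84 TPM in WT with a median of 19.1, and from 22.33 to 32.27 in TREM2-KO with a median of 26.0. Every TREM2-KO library was above every WT library, and CENPA rose by 0.49 ± 0.106 (SE; 95% interval 0.28 to 0.71; limma adjusted p = 0.008455). CENPE (chr4:103105806-103198409, minus strand), a kinesin that carries chromosomes to the spindle equator, ran from 6.14 to 8.1 TPM in WT (median 6.86) and from 8.14 to 11.4 in TREM2-KO (median 9.68). The groups did not overlap, and CENPE rose by 0.43 ± 0.105 (limma adjusted p = 0.02543). The third member, CENPF, a large kinetochore protein, was not called, with 48.28 ± 4.54 TPM (SD, n = 8) in TREM2-KO and 38.21 ± 8.79 (n = 7) in WT. Leaving out WT library 2, TREM2-KO library 4 or TREM2-KO library 7 took CENPE over the threshold, with changes of 0.40, 0.42 and 0.40 (limma adjusted p = 0.0709, 0.0512 and 0.0609).

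Among kinesins and spindle genes all 6 changes were above 0, with a median of 0.33. STMN1 (chr1:25884181-25906991, minus strand), stathmin, which destabilises microtubules, had the lowest adjusted p of the list. It ran from 215.4 to 297 TPM in WT (median 273.8) and from 285.6 to 402.9 in TREM2-KO (median 349.1), and rose by 0.38 ± 0.079 (95% interval 0.22 to 0.54; limma adjusted p = 0.004966), although the groups overlapped. With the library number as a block, a fit that TREM2-KO library 8 leaves because it has no partner in WT, the adjusted p of STMN1 was 0.104. KIF20A (chr5:138178719-138187715, plus strand), a kinesin of the central spindle, ran from 12.44 to 18.78 TPM in WT (median 17.2) and from 19.61 to 28.57 in TREM2-KO (median 22.46). Its groups did not overlap and it rose by 0.49 ± 0.118 (limma adjusted p = 0.01898), with an adjusted p of 0.0529 under the block, 0.0503 without WT library 1 (change 0.44) and 0.0545 without TREM2-KO library 4 (change 0.45). KIF23, another kinesin of the central spindle, was at 26.03 ± 5.66 TPM against 19.89 ± 2.30 and was not called (limma adjusted p = 0.1568).

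The chromatin genes of dividing cells had changes above 0 for 4 of 4. TOP2A (chr17:40388516-40417950, minus strand), the topoisomerase that untangles replicated chromosomes, ran from 76.4 to 94.77 TPM in WT (median 83.9) and from 99.01 to 141.5 in TREM2-KO (median 115.9). Every TREM2-KO library was above every WT library (0.45 ± 0.099, 95% interval 0.25 to 0.65; limma adjusted p = 0.009281). HMGB2 (chr4:173331695-173335125, minus strand), a DNA-bending protein, ran from 154.8 to 187.9 TPM in WT (median 170.9) and from 176.9 to 285.5 in TREM2-KO (median 225.6). HMGB2 rose by 0.38 ± 0.085 (limma adjusted p = 0.01098) with overlapping groups, and its adjusted p under the block was 0.0515. MKI67 was not called in the fit of all libraries (0.32 ± 0.116, 95% interval 0.08 to 0.55; adjusted p = 0.1999). It ran from 63.98 to 70.4 TPM in WT and from 63.84 to 102.2 in TREM2-KO, where library 8 was the lowest and the other 7 were above the WT mean. Under the block, in which library 8 has no part, the change in MKI67 was 0.38 with an adjusted p of 0.0261.

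All 9 mitotic cyclins, kinases and activators had changes between 0.20 and 0.31, and 1 of them was called. CCNB2 (chr15:59105078-59125045, plus strand), cyclin B2, ran from 36.23 to 57.68 TPM in WT (median 45.92) and from 51.97 to 60.47 in TREM2-KO (median 56.24), so that the TREM2-KO libraries lay inside and just above the upper part of the WT range. It rose by 0.31 ± 0.084 (95% interval 0.14 to 0.48), with an adjusted p of 0.04997 (limma) at the edge of the threshold. The call was lost under the block (adjusted p = 0.0748) and when any 1 library was left out other than WT libraries 3, 5 and 6 and TREM2-KO library 3 (change 0.25 to 0.32, adjusted p up to 0.137). CDK1, the kinase of mitosis, was at 75.17 ± 16.9 TPM against 62.94 ± 3.31 and was not called. The 5 checkpoint and mitotic exit genes were all above 0 (median 0.24) and none was called. BUB1, a checkpoint kinase, ran from 24.7 to 28.72 TPM in WT (median 26.57) and from 25.78 to 39.47 in TREM2-KO (median 32.4), with an adjusted p of 0.1473 in the fit of all libraries and 0.0367 under the block.

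The uncalled mitotic genes had the same sign with wide intervals. PLK1, a kinase of mitotic entry, was at 72.47 ± 13.5 TPM in TREM2-KO and 57.95 ± 8.48 in WT (change 0.31, 95% interval 0.03 to 0.58). AURKA, a kinase of spindle poles, was at 69.77 ± 10.52 against 58.49 ± 7.28 TPM, and CCNB1, cyclin B1, at 102.1 ± 17.2 against 85.63 ± 15.5. CDC20, which activates the anaphase-promoting complex, was at 85.66 ± 14.5 against 65.78 ± 10.1 TPM (change 0.37, interval 0.09 to 0.65). In each of these genes the groups overlapped. The smallest changes were those of TTK, a checkpoint kinase (0.18, interval -0.06 to 0.43), BUB1B (0.19, -0.08 to 0.46) and BIRC5, survivin (0.20, -0.14 to 0.54), so neither a difference nor its absence was shown for them.

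The replication and G1 genes gave 0 calls. The 9 licensing and fork genes had a median change of -0.22, with 1 of 9 above 0, and the 9 G1 genes a median of -0.17, also with 1 of 9 above 0. The change in MCM2 was -0.35 with a 95% interval from -1.10 to 0.39, and that in CCND1 -0.41 with an interval from -1.01 to 0.20, so neither a fall nor a rise was shown. The 4 nucleotide genes had a median of 0.04. These signs depended in part on TREM2-KO library 8. Without the 3 libraries that stood apart, 41 of the 49 members were above 0 and 8 below, against 31 and 18 with them. The lowest change was then -0.23, against -0.41 with them. Over all 49 genes the median was 0.19, against -0.0025 over all tested genes, and 18 members had an unadjusted p below 0.05, all of them higher, beside 4.25% of all genes called higher at that level. In 4 members, CENPA, CENPE, KIF20A and TOP2A, every TREM2-KO library was above every WT library, against 0.155% of all genes.

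The wider lists of cell cycle genes were counted in the same way. Of 65 other genes of G2 and mitosis, 58 had changes above 0 with a median of 0.25, but only DLGAP5, a spindle protein, was called (23.07 ± 2.13 against 17.36 ± 3.23 TPM; change 0.41, limma adjusted p = 0.03459). Of 45 other replication genes, 10 were above 0, the median was -0.05 and 0 were called. Among 9 CDK inhibitors, CDKN2B (p15) fell by 1.45 (2.83 ± 2.60 against 10.41 ± 7.63 TPM; limma adjusted p = 0.04593). No E2F, pocket protein or MuvB gene (25 tested) and no p53 target (23 tested) was called by limma. These counts stand beside 0.283% of all tested genes called higher and 1.33% called lower.

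The count of calls depended on the libraries in the fit. Without the 3 libraries that stood apart (TREM2-KO 8, SORL1-KO 7 and SORL1-A528T 7), a choice made after the data were seen, 16 members were higher and 0 lower in TREM2-KO than in WT, against 1.81% of all genes in either direction and 0.572% higher. These 16 held all 7 genes above, with CCNA2, PLK1, AURKA, BUB1, CDC20, KIF11, KIF23, TPX2 and MKI67 (MKI67 change 0.38, limma adjusted p = 0.00141). With the library number as a block, 6 members were called, all higher: CENPA, CENPE, TOP2A, BUB1, TPX2 and MKI67 (3.33% of all genes in either direction). Leaving out TREM2-KO library 4 gave 4 calls. Among the stromal markers, LUM, DCN and COL1A2 were called lower in TREM2-KO than in WT. COL1A1 was not called, with means of 17.93 and 185.5 TPM. PECAM1 went the other way without a call, with means of 264.8 and 236.4 TPM. The stromal level was the mean log2(TPM + 1) of the listed markers. It ran from 1.04 to 3.03 in TREM2-KO and from 1.09 to 5.35 in WT, so the groups overlapped. With the stromal level as a covariate 7 members were called, all higher, against 1.67% of all genes in either direction.

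**Figure D2:**
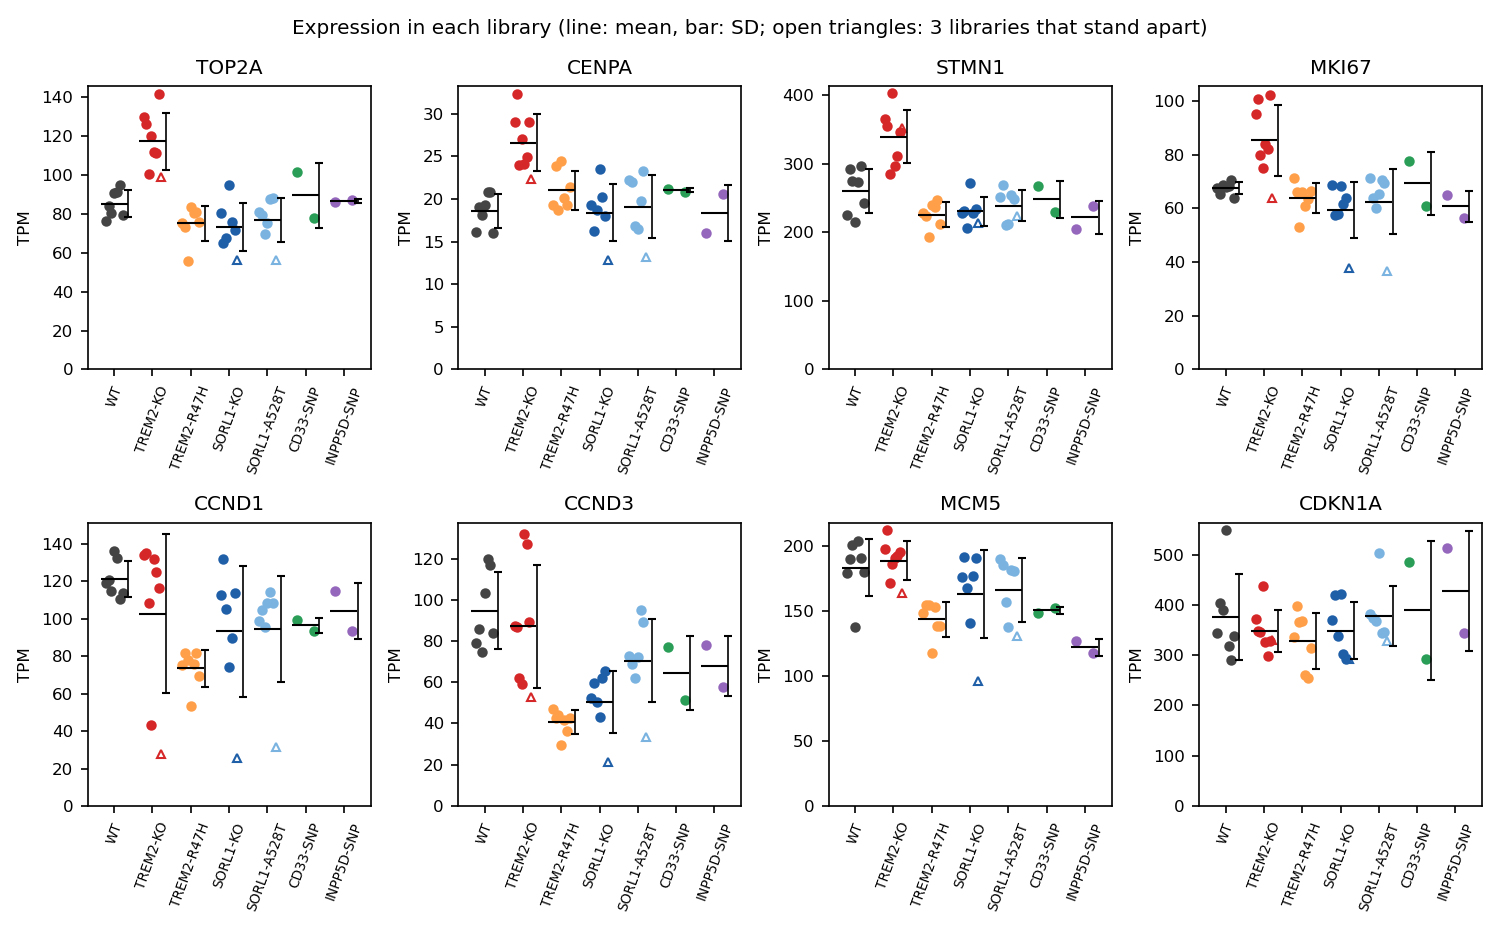
TPM of 8 genes in each of the 40 libraries by group, with a line at the group mean and a bar of 1 SD. Open triangles mark the 3 libraries that stood apart. TOP2A and CENPA are higher in every TREM2-KO library than in every WT library, and CCND3 is lower in every TREM2-R47H library than in every WT library.

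Cyclin D3 was lower in TREM2-R47H cells than in WT, and few other members were called. In this comparison 3 members fell and 0 rose, against 11.4% of all tested genes called in either direction and 8.77% called lower, so the share of members called (3 of 49) was not above the background. CCND3 (chr6:41934933-42050357, minus strand), a D-type cyclin with known roles in blood cells, ran from 74.55 to 119.9 TPM in WT (median 85.79) and from 29.6 to 46.82 in TREM2-R47H (median 42.56). No library of either group lay in the range of the other, and CCND3 fell by 1.19 ± 0.217 (95% interval -1.63 to -0.75; limma adjusted p = 0.000227). The call held under the block (adjusted p = 0.000477), a fit in which 1 member rose and 4 fell, with 18.4% of all genes called. Stromal markers were lower here too, with 5 of 10 kept markers called lower, namely LUM, DCN, TAGLN, COL3A1 and PECAM1. The change in CCND3 was called with the stromal level as a covariate (-1.09, limma adjusted p = 0.00487). Of 15 microglial markers 4 were lower and 1 higher, 2 of 3 kept progenitor markers were lower (KIT by 1.74 and SPN by 0.32), 1 of 4 kept lymphoid markers was higher (NKG7), and the neural marker NES was higher by 0.88. The part of these markers in the result was not tested.

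MCM5 (chr22:35400063-35425430, plus strand), a subunit of the replicative helicase, ran from 137.8 to 203.9 TPM in WT (median 189.6) and from 117.8 to 154.4 in TREM2-R47H (median 148.2). The groups overlapped through WT library 4, the lowest of WT, and MCM5 fell by 0.34 ± 0.111 (95% interval -0.57 to -0.12; limma adjusted p = 0.03638). HMGB2 ran from 111.6 to 160.8 TPM in TREM2-R47H (median 136.1), overlapping with WT at the upper end, and fell by 0.28 ± 0.087 (limma adjusted p = 0.03216). Both calls stood near the threshold. MCM5 was not called when WT library 1, 2, 3, 5, 6 or 7 or TREM2-R47H library 4, 6 or 7 was left out (change -0.35 to -0.30, adjusted p up to 0.0831). HMGB2 was not called when WT library 2, 5 or 6 or TREM2-R47H library 1, 2, 3 or 7 was left out (change -0.27 to -0.22, adjusted p up to 0.106), or with the stromal level as a covariate (change -0.21, adjusted p = 0.238). With the libraries scaled by median ratios, both were not called (MCM5 -0.27, adjusted p = 0.155; HMGB2 -0.20, adjusted p = 0.137).

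CCND1, cyclin D1, ran from 110.7 to 136.1 TPM in WT (median 119) and from 53.29 to 81.62 in TREM2-R47H (median 75.77) without overlap. It was not called in the fit of all libraries (-0.72 ± 0.308, 95% interval -1.35 to -0.09; limma adjusted p = 0.1357), whose other groups held libraries as low as 27.85 TPM (TREM2-KO 8), 25.56 (SORL1-KO 7) and 31.6 (SORL1-A528T 7). Its adjusted p was 0.00105 under the block and 0.00167 without the 3 libraries. CDK4, the kinase partner of the D cyclins, was at 104 ± 23.0 TPM against 73.36 ± 8.32 in WT, with an adjusted p of 0.2893 in the main fit and 0.00322 under the block. CCND1 and CCND3 were the 2 members whose groups did not overlap, both lower, beside 3.51% of all genes. TOP2A (55.85 to 83.76 TPM, median 75.75) and MKI67 (53.11 to 71.19 TPM, median 65.92) overlapped with WT, with a change in MKI67 of -0.08 and a 95% interval from -0.33 to 0.16. STMN1 was at 225.9 ± 18.8 TPM against 260.3 ± 32.6, with overlap (-0.20, 95% interval -0.36 to -0.03; adjusted p = 0.114). The median over the 49 genes was -0.03, against -0.06 over all tested genes.

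Counts in the wider lists are given beside the share of all genes. RB1, the retinoblastoma protein, fell by 0.53 (146.6 ± 13.5 against 212.5 ± 15.9 TPM; limma adjusted p = 3.788e-06). The CDK4 and CDK6 inhibitors CDKN2D (p19) and CDKN2C (p18) fell by 0.78 and 0.44 (limma adjusted p = 3.288e-05 and 0.0223), and E2F5 rose by 0.69 (adjusted p = 0.04255). In all, 1 of 25 tested E2F, pocket protein and MuvB genes rose and 2 fell, and 2 of 9 CDK inhibitors fell, beside 11.4% of all genes called in either direction. Of 45 other replication genes 3 fell, namely POLE, the leading-strand polymerase, by 0.44, the maintenance methyltransferase DNMT1 by 0.46 and the origin protein ORC2 by 0.30. Of 65 other G2 and mitosis genes 1 fell, ESPL1 (separase), by 0.52 (limma adjusted p = 0.002328). These counts stand beside the 8.77% of all genes called lower.

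The direct comparison of the 2 TREM2 edits gave 13 members that were higher in the knockout and 0 that were lower, with 21.3% of all tested genes called in either direction and 14.7% called higher. In 6 members the groups did not overlap, all higher in TREM2-KO, against 3.9% of all genes. HMGB2 was higher by 0.66 (limma adjusted p = 4.391e-07), STMN1 by 0.58 (9.506e-07) and TOP2A by 0.64 (8.96e-06), each with every TREM2-KO library above every TREM2-R47H library. CCND3 was higher by 1.03 ± 0.210 (limma adjusted p = 0.0004251), with TREM2-KO from 52.78 to 132 TPM and TREM2-R47H from 29.6 to 46.82. CENPF was higher by 0.55 (48.28 ± 4.54 against 33.04 ± 6.71 TPM; adjusted p = 0.002509) and MCM5 by 0.39 (188.4 ± 15.0 against 143.4 ± 13.4; adjusted p = 0.007186), also without overlap.

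The other 7 called genes had overlapping groups. CENPE was higher by 0.46, NUSAP1, which bundles spindle microtubules, by 0.45, MKI67 by 0.40 and KIF23 by 0.40 (limma adjusted p = 0.001634, 0.003702, 0.01128 and 0.01464). TPX2, an activator of AURKA, was higher by 0.34, CENPA by 0.32 and CDC25C by 0.35, with limma adjusted p = 0.02501, 0.02599 and 0.04036. CDC25C ran from 4.89 to 9.48 TPM in TREM2-KO and from 3.64 to 5.87 in TREM2-R47H. Its call was lost without TREM2-KO library 1, 2, 4, 7 or 8 or TREM2-R47H library 1, 2, 3, 6 or 7 (change 0.28 to 0.36, adjusted p up to 0.124). That of CENPA was lost without TREM2-KO library 2 or TREM2-R47H library 1 or 3 (0.28 to 0.31, adjusted p up to 0.0625), and that of TPX2 without TREM2-KO library 1 or 7 or TREM2-R47H library 3 (0.31 in each, adjusted p up to 0.0624). With median-ratio scaling the calls of MKI67 (0.32, adjusted p = 0.0536), KIF23 (0.33, 0.0597), TPX2 (0.26, 0.11), CENPA (0.25, 0.113) and CDC25C (0.28, 0.101) were all lost.

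CDK4 was the lowest member in this comparison (-0.65, limma adjusted p = 0.07096) and was not called. The median over the 49 genes was 0.17, against 0.06 over all tested genes. Without the 3 libraries 23 members were higher and 0 lower (15% of all genes higher). The list counts that follow are from the fit of all libraries, where 14.7% of all tested genes were called higher and 6.58% lower. Of 65 other G2 and mitosis genes 25 were higher and 0 lower, led by ESPL1 (0.89, limma adjusted p = 3.607e-07), with the cytokinesis genes ECT2 (0.48) and RACGAP1 (0.44) and the chromosomal passenger INCENP (0.48). Among 25 E2F, pocket protein and MuvB genes 3 were higher and 3 lower: RB1 was higher by 0.75, and MYC (-1.17), E2F5 (-0.76) and CDK6 (-0.59) were lower. CDKN2D and CDKN2C were higher by 0.88 and 0.83. Microglial markers also differed, with 6 of 15 higher and 1 lower, as did 2 of 3 kept progenitor markers (both higher) and 1 of 10 kept stromal markers (PECAM1, higher). The neural markers NES (-1.88) and MAP2 (-0.53, with means of 0.21 and 0.74 TPM) and the lymphoid marker NKG7 (-0.63) were lower in TREM2-KO. With the stromal level as a covariate 13 members were higher and 1 lower (22.9% of all genes called). The part of the microglial, progenitor, neural and lymphoid markers in the result was not tested.

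In SORL1-KO cells 1 member fell and 0 rose, against 1.09% of all tested genes in either direction and 0.835% lower. CCND3 ran from 21.33 to 65.32 TPM (median 52.24), with library 7 the lowest, and every library was below every WT library. CCND3 fell by 0.94 ± 0.217 (95% interval -1.38 to -0.50; limma adjusted p = 0.02504), and it was the 1 member whose groups did not overlap, beside 0.438% of all genes lower. The call was lost without WT library 5 (-0.88, adjusted p = 0.0872), without WT library 6 (-0.89, adjusted p = 0.0755) and without SORL1-KO library 7 (-0.75, adjusted p = 0.0685). It was also lost with the stromal level as a covariate (-0.81, adjusted p = 0.32), while without all 3 libraries that stood apart it was kept (-0.75, adjusted p = 0.0148). The next genes by adjusted p were HMGB2 (-0.25, 0.1673), TOP2A (-0.23, 0.3502) and KIF23 (-0.28, 0.3657). TOP2A ran from 56.07 to 94.72 TPM (median 71.7), overlapping with WT. Among CDK inhibitors CDKN2D fell by 0.49 (limma adjusted p = 0.04073), and 0 of 65 other mitosis genes and 0 of 45 other replication genes were called.

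The SORL1-KO changes were below 0 for 48 of the 49 genes, with a median of -0.22 against -0.03 for all genes, but both values depended on library 7. Without it and the 2 other libraries that stood apart, 37 were below 0 and the median was -0.05. In SORL1-A528T 0 members were called by limma, against 0.0471% of all tested genes, and 3 had an unadjusted p below 0.05, all lower, beside 3.74% of all genes. The genes with the lowest adjusted p were HMGB2 (-0.24, 0.4573), CDC25C (-0.32, 0.5759), CCND3 (-0.46, 0.7935) and CCND2 (-0.37, 0.9207). CCND3 ran from 33.24 to 95.02 TPM in SORL1-A528T (median 72.17), overlapping with WT. Changes were below 0 for 45 members with a median of -0.18, and without the 3 libraries for 34 members with a median of -0.03.

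Between SORL1-KO and SORL1-A528T limma called 0 members, against 0.0942% of all tested genes, and 1 had an unadjusted p below 0.05, beside 2.24% of all genes. That gene was CCND3, lower in SORL1-KO by 0.48 ± 0.217 (95% interval -0.92 to -0.04; limma adjusted p = 1). Under the block of library numbers its adjusted p was 0.0109, with 0.498% of all genes called. The next genes, BUB1B (0.20), KIF23 (-0.15) and CDKN1A (-0.12), each had an adjusted p of 1.

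Replication genes had low values in INPP5D-SNP against WT, with only 2 libraries to judge by. Libraries of other groups were as low: the replication score, defined further on, was 5.48 in SORL1-KO library 4 and 5.62 in TREM2-R47H library 4, beside 5.48 and 5.54 in INPP5D-SNP. Limma called 0 members, against 0.0337% of all tested genes, and 1 higher and 2 lower had an unadjusted p below 0.05, beside 3.18% and 4.13% of all genes. In 26 of the 49 members both INPP5D-SNP libraries were below every WT library, and in 1 both were above, against 11.5% and 5.71% of all genes. The 9 licensing and fork genes were all below 0 with a median of -0.68, the 4 nucleotide genes had a median of -0.54, and all 45 other replication genes were below 0 with a median of -0.48, while all tested genes had a median of -0.0087. The 65 other G2 and mitosis genes had a median of -0.24.

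MCM5 was at 126.3 and 117.2 TPM in the INPP5D-SNP libraries, below every WT library (137.8 to 203.9). Its change was -0.57 ± 0.166 (95% interval -0.91 to -0.24; limma adjusted p = 0.606), and its adjusted p was 0.0496 without the 3 libraries that stood apart. MCM2 was at 25.78 ± 0.148 TPM (n = 2) against 50.92 ± 7.05 (n = 7), a change of -0.94, and MCM7 at 71.63 ± 3.59 against 116.4 ± 13.7, a change of -0.68 (limma adjusted p = 0.6671). CDC6, which loads the helicase, had the lowest change of the licensing genes at -0.97. The transcription factor E2F1 stood at -0.87 and RRM2, a subunit of ribonucleotide reductase, at -0.75. MCM6 was at 27.38 ± 0.269 against 47.52 ± 6.66 TPM, PCNA at 159.2 ± 6.30 against 220.4 ± 23.2 and RRM2 at 74.34 ± 2.79 against 126.5 ± 17.8, each without overlap. The 95% intervals of these changes reached above 0 (MCM6 -1.86 to 0.34, PCNA -1.07 to 0.15, RRM2 -1.76 to 0.27). Among G1 genes the E cyclins, which activate CDK2 at the start of S phase, were also below WT in both libraries (CCNE1 at 6.68 ± 0.891 against 10.55 ± 1.70 TPM, CCNE2 at 6.325 ± 1.82 against 10.95 ± 2.05). TOP2A was at 85.85 and 87.31 TPM, inside the WT range. CCND2, cyclin D2, was at 5.86 and 17.55 TPM in INPP5D-SNP and between 2.59 and 11.67 in WT, a change of 0.86 ± 0.301 (adjusted p = 0.606) that ran from 0.15 to 1.58 as single libraries were left out. STMN1 was at 204.8 and 238.4 TPM, with a change of -0.23 (adjusted p = 0.6671). INPP5D-SNP also had the highest stromal markers, with a COL1A1 mean of 309.2 TPM. With the stromal level as a covariate limma again called 0 members (0.0269% of all genes), with changes of -0.52 in MCM5, -0.54 in MCM7 and 0.52 in CCND2.

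In CD33-SNP limma called 0 members and 0% of all tested genes, and 0 members had an unadjusted p below 0.05, against 4.18% of all genes. Both libraries were above every WT library in 2 members and below in 2, against 6.63% of all genes in either direction. KIF20A had a change of 0.34, MCM5 -0.27, CCND2 -0.33 and CCND3 -0.56 (limma adjusted p = 0.9995 for each). CCND3 was at 77.14 and 51.64 TPM, MKI67 at 77.55 and 60.88 and TOP2A at 101.4 and 77.71, so the 2 libraries lay on both sides of the WT mean of MKI67 and TOP2A.

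CDKN1A, the p53-induced CDK inhibitor, was the most abundant G1 gene in every group and was called in no comparison. It ran from 290.9 to 549.5 TPM in WT (median 344.6), from 299.1 to 438 in TREM2-KO (338.8), from 254.4 to 398.4 in TREM2-R47H (336.8), from 292.9 to 422.4 in SORL1-KO (339.2) and from 328 to 504.4 in SORL1-A528T (369.1). The CD33-SNP libraries were at 486.3 and 292 TPM and the INPP5D-SNP libraries at 512.7 and 343.5. The groups overlapped throughout, and the change in TREM2-KO against WT was -0.09 with a 95% interval from -0.35 to 0.17. Thymidine kinase TK1, a nucleotide salvage enzyme, likewise overlapped in the 5 larger groups, from 53.53 to 73.56 TPM in WT, 32.58 to 100.2 in TREM2-KO and 21.35 to 80.41 in SORL1-KO. The lowest TK1 values of TREM2-KO, SORL1-KO and SORL1-A528T (32.58, 21.35 and 23.81 TPM) came from the 3 libraries that stood apart.

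The mitotic and replication genes were also summed up per library, as mean log2(TPM + 1) of 24 mitotic genes (a division score) and of 13 licensing and nucleotide genes (a replication score). The division score was 5.53 ± 0.20 (SD, n = 8) in TREM2-KO and 5.23 ± 0.12 (n = 7) in WT. It was 5.25 ± 0.12 in TREM2-R47H, 5.08 ± 0.26 in SORL1-KO and 5.10 ± 0.28 in SORL1-A528T. In 7 of the 8 TREM2-KO libraries it was above 5.3926, the highest score of the 32 other libraries. The replication score was 6.07 ± 0.63 in TREM2-KO and 6.18 ± 0.19 in WT. The TREM2-KO mean was pulled down by library 8, at 4.68, and the group medians were 6.21 and 6.24. The highest TREM2-KO library stood at 6.54, so no difference in replication score between these groups was shown. The INPP5D-SNP libraries, at 5.48 and 5.54, were below all 7 WT libraries (5.82 to 6.35). After subtraction of group means the 2 scores had a Pearson r of 0.74 over 40 libraries and of 0.15 over 37 without the 3 libraries (Spearman 0.47 and 0.21), so that the relation rested on those 3. The points share their libraries and scaling, and no p is given.

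**Figure D3:**
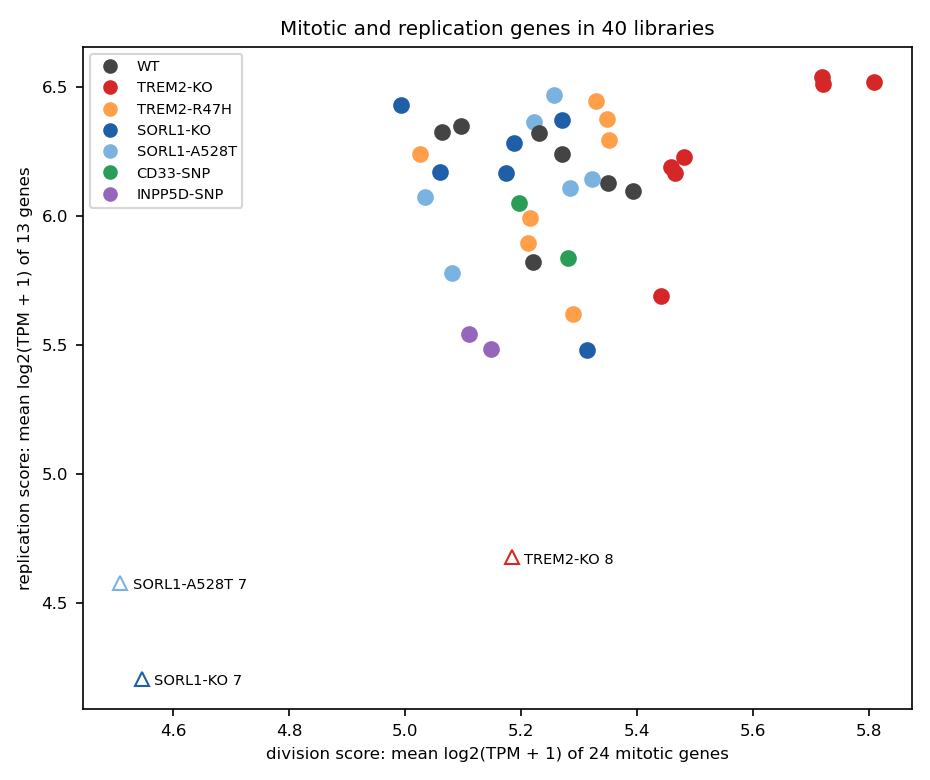
Division score against replication score, both as mean log2(TPM + 1), for each of the 40 libraries coloured by group. Triangles mark the 3 libraries that stood apart, with replication scores of 4.68, 4.20 and 4.58, and 7 of 8 TREM2-KO libraries lie above 5.3926 on the division axis.

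The spread between libraries of a group differed by role. The coefficient of variation within groups had a median of 32.57% over the 9 licensing and fork genes (13.3% for MCM5 to 40.17% for CDC6) and of 27.7% over the 4 nucleotide genes. Over the 9 mitotic cyclins, kinases and activators the median was 18.81% (10.79% for CCNB2 to 21.65% for AURKB), so MCM5 varied less than 8 of these 9 genes and PCNA, at 22.02%, about as much as AURKB. The 9 G1 genes ran from 18.45% for CDK2 to 42.71% for CCND2. Over all 40 libraries, group differences included, CDC6 differed 14.3-fold between the highest and lowest library and CCNB2 1.68-fold. The lowest values of their groups lay mostly in the 3 libraries that stood apart. In TREM2-KO library 8, SORL1-KO library 7 and SORL1-A528T library 7, 79.6%, 85.7% and 91.8% of the members were at the lowest value of the group, against 23.4%, 29.2% and 28.4% of all tested genes.

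The drop in these libraries was graded by role. The median difference of the licensing and fork genes from the other libraries of the group was -1.97, -2.42 and -1.64 in the 3 libraries, that of the nucleotide genes -1.33, -1.68 and -1.52, and that of the mitotic cyclins and kinases -0.54, -0.84 and -0.92. The centromere genes lay at -0.06, 0.02 and -0.19. In TREM2-KO library 8 MCM4 was at 19.84 TPM against 63.0 to 122.86 in the other 7 libraries and E2F1 at 18.9% of their median, whereas CENPF was at 56.72 TPM, above their range of 44.62 to 53.84. In SORL1-KO library 7 MCM4 was at 10.4% of the median of the others, CDC6 at 10.2% and GINS2 at 11.5%, but MCM5 at 54.5%. MCM5 was likewise the helicase subunit that stayed nearest to the others in TREM2-KO library 8, at 85.3%. CCND1 and CCND3 were lowest in the same libraries of SORL1-KO (25.56 and 21.33 TPM) and SORL1-A528T (31.6 and 33.24 TPM).

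A milder drop was seen in the libraries numbered 4. In the 5 larger groups, the licensing and fork genes of library 4 lay between 0.44 and 1.02 below the other libraries of the group on the log2 scale (medians -1.022 to -0.4425), the nucleotide genes at -0.39 to -0.17, and the mitotic cyclins and kinases at -0.29 to 0.08. The centromere genes lay at -0.0003 to 0.45 and all tested genes at -0.03 to 0.06. In WT and in TREM2-R47H library 4 was the lowest of its group for 9 of 9 licensing and fork genes. CDKN1A was highest in library 4 of WT, TREM2-KO, SORL1-KO and SORL1-A528T (549.5, 438, 422.4 and 504.4 TPM). The labels do not say what a shared number means, and no cause was tested.

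**Figure D4:**
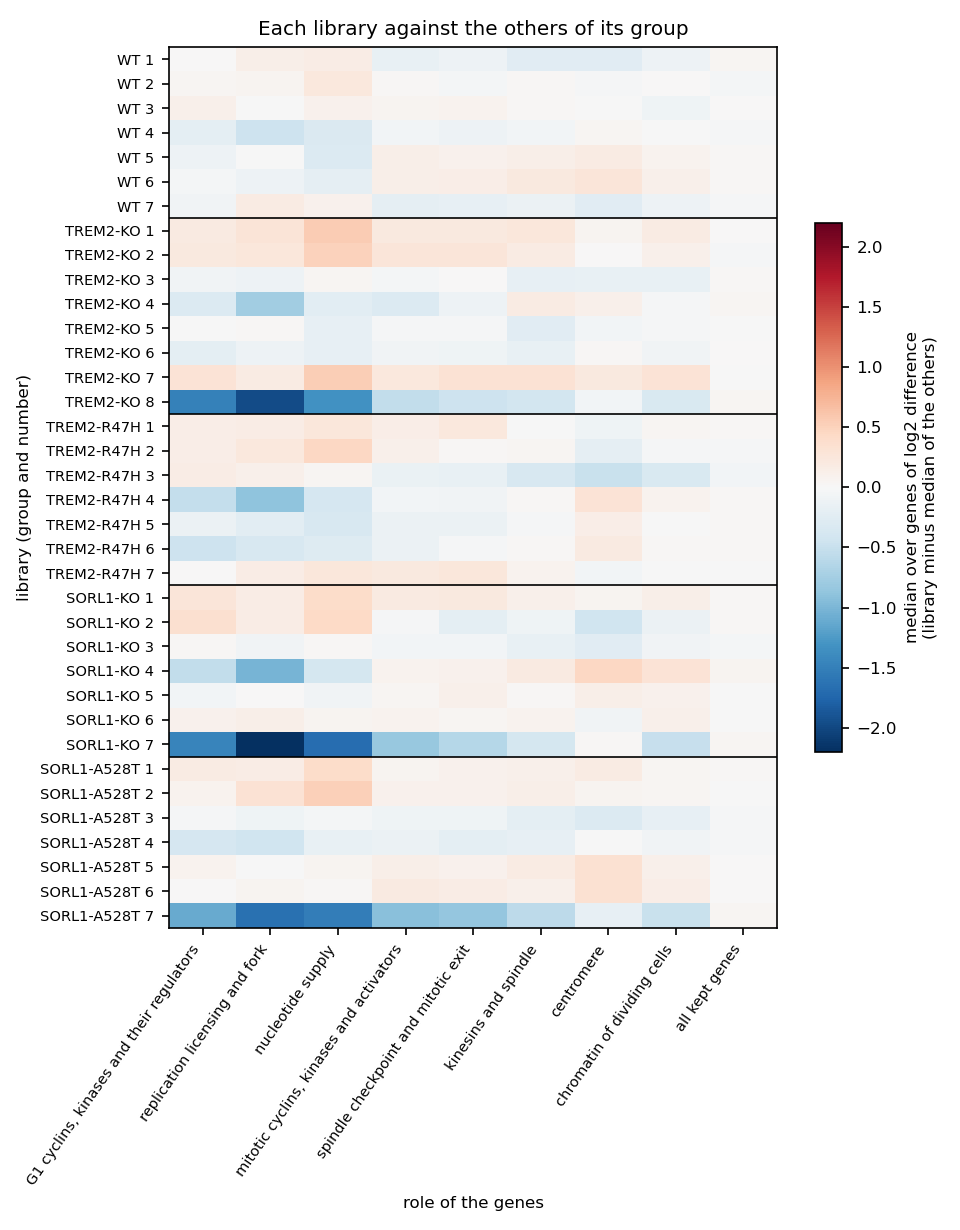
Median log2 difference of each library from the other libraries of its group (rows, the 36 libraries of the 5 larger groups), by role of the genes (columns, with all tested genes last). The licensing column is lowest in TREM2-KO 8, SORL1-KO 7 and SORL1-A528T 7 (-1.97, -2.42 and -1.64) and is below 0 in every library numbered 4.

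The members were also compared from library to library once group means were subtracted. Across the 40 libraries TPX2, KIF11 and MKI67 had a Pearson r of 0.96, 0.95 and 0.93 with the division score computed without the gene itself. The 9 licensing genes had an r of 0.81 to 0.98 with the replication score, each again left out of the score. CDKN1A (0.12) and CCND2 (0.16) followed the division score least. Outside all the lists, the 5 tested genes most like the division score were CEP55 (0.93), KPNA2 (0.91), SPAG5 (0.90), DEPDC1B (0.89) and ODF2 (0.86). These correlations are over libraries that share scaling and group structure, include the 3 that stood apart, and carry no p.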

How the data were processed

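RNA-seq of 40 libraries was analysed from 1 table of TPM per gene. The TPM values were made by the authors with cutadapt 1.18, STAR 2.7 and RSEM 1.3.1, with DESeq2 also named, per the submitters' processing notes. The build and annotation of the table: not given in the sources used here. Library columns summed to between 999999.15 and 1000000.76, and 93.48% of the gene identifiers had a symbol. Depth per sample cannot be read from TPM, and per the labels libraries had 39.2 to 64.6 M reads.

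The 49 genes, the wider lists and the tests were chosen with earlier results of these data known. Levels as log2(TPM + 1) were tested in limma (version 3.58.1, under R version 4.3.3), with trend and robust variance moderation, 7 group means in 1 fit of all 40 libraries, two-sided p-values and Benjamini-Hochberg adjustment over the 14855 genes with at least 1 TPM in 7 or more libraries. A gene was called at an adjusted p below 0.05. The script was tested on simulated data. Each called member was named, and the 4 with the lowest adjusted p where fewer than 4 were called. Per-library values were given for MKI67, TOP2A, CCND1, CCND2, CCND3, CDKN1A and the member of each role with the lowest adjusted p. From the other lists up to 4 called genes were named. MCM2, CDK1 and other members were added after their values were seen.

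Library numbers were taken from the labels. They paired the groups where the deviations of every same-numbered pair from their group means had a correlation over 0.1 across genes. This held for TREM2-KO with WT (0.1145 to 0.3118 over 7 pairs), TREM2-R47H with WT (0.1403 to 0.2779) and SORL1-KO with SORL1-A528T (0.3056 to 0.7846). The pairing was loose: a library of the first group correlated best with its own number in only 3 of 7, 4 of 7 and 3 of 7 pairs, in that order. Alternatives were the pseudocount, the filter, the scaling, library weights, the number as a block, fits of 2 groups alone and each library left out. A stromal covariate and leaving out 3 libraries were added after the data were seen. Gene positions came from GENCODE v29 and promoters from RefSeq, both on GRCh38.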

Additional observations from a re-analysis of the deposited data

Results flagged for a closer look

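Of 75 groups of library values tested for a single value far from the rest (Dixon's test, groups of 4 to 10 libraries), 16 were flagged, where chance flags about 1 in 20. Of these, 8 came from libraries that stood apart over all genes. The replication score was 4.6753 in TREM2-KO library 8 (nearest other library 5.6903), 4.2034 in SORL1-KO library 7 (5.4817) and 4.5753 in SORL1-A528T library 7 (5.7778). The division score was 4.5462 in SORL1-KO library 7 (4.9935) and 4.509 in SORL1-A528T library 7 (5.034). MKI67 was at 37.9 TPM in SORL1-KO library 7 (57.41) and 36.48 in SORL1-A528T library 7 (60.27), and CCND1 at 31.6 TPM in the latter (95.84).

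TREM2-R47H library 3 was low for TOP2A at 55.85 TPM (nearest 73.36), CDC25C at 3.64 TPM (4.96) and the division score at 5.0258 (5.2116). SORL1-KO library 4 was high for CDC25C at 7.16 TPM (4.87), STMN1 at 271.98 TPM (234.29) and HMGB2 at 184.08 TPM (149.92). WT library 4 was low for MCM5 at 137.82 TPM (179.13), and SORL1-A528T library 4 was high for CDKN1A at 504.39 TPM (382.42). These 16 flags are descriptions, and no cause was tested.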

How the results depend on the processing

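The count of cell cycle genes called was recomputed under each alternative, and the share of all tested genes called in the same fit is given in brackets where the genes tested were the same. For TREM2-KO against WT (7 in the reported fit) it was 11 with the replicate block in all libraries (3.95%), 21 with library weights from arrayWeights (4.27%) and 16 without the 3 libraries that stood apart (1.81%), all higher, and 4 to 7 as single libraries were left out, with 4 without TREM2-KO library 4. For TREM2-R47H against WT (3) it was 1 without the low-value filter, 1 with median-ratio scaling (9.64%) and 1 with quantile normalization (9.06%), 9 with library weights (4 higher and 5 lower, 27.6%), 5 in a fit of the 2 groups alone (1 higher and 4 lower, 12.7%) and 5 with the replicate block (1 higher and 4 lower, 18.4%), and 1 to 3 as single libraries were left out, with 1 without WT library 2, 5 or 6 or TREM2-R47H library 7. For SORL1-KO against WT (1) it was 0 with no filter, 0 with the stromal covariate (0.121%) and 0 in the 2 groups alone (0.35%), 2 lower with the block in all libraries (4.95%) and 2 lower with library weights (4.53%), and 0 to 1 as libraries were left out. For INPP5D-SNP against WT (0) it was 8 with the block in all libraries (1 higher and 7 lower, 10.5%), 9 in the 2 groups alone (all lower, 3.3%), 1 lower with library weights (0.209%) and 1 lower without the 3 libraries (0.0673%), and 0 with each library left out. The numbers did not pair INPP5D-SNP with WT (0.0212 to 0.102) or SORL1-KO with WT (-0.1054 to 0.2879), so the block counts of these comparisons have no such basis. For TREM2-KO against TREM2-R47H (13) it was 8 with median-ratio scaling (19.3%), 26 with library weights (25 higher and 1 lower, 32.1%), 23 without the 3 libraries (21.7%), and 30 with the replicate block of the 2 groups, with or without the 3 libraries (29 higher and 1 lower, 26.5%), and 10 to 16 as libraries were left out. There the numbers did not pair the groups (0.0916 to 0.5395). For SORL1-KO against SORL1-A528T (0) it was 1 lower with the block (0.498%), 0 with the block but without the 3 libraries (0.175%) and 0 with each library left out. No alternative moved the counts of 0 for SORL1-A528T and CD33-SNP against WT. CCND2 changed sign with the stromal covariate, to 0.1103 in SORL1-A528T and to 0.0461 in CD33-SNP, where it was not called. Of the values of single named genes under alternatives, 92 lost a call and 11 gained one. The cause of these shifts was not tested. TPM carries no counting error, so no depth limit could be set for low genes such as CCND2 and CDC25C.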

Other observations

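Genes that respond to p53 were counted beside the cell cycle genes, since CDKN1A is 1 of the targets of p53. In TREM2-R47H against WT 1 of 23 such genes rose, SESN1, a sestrin of the stress response, by 0.62 (limma adjusted p = 0.01553), beside 2.63% of all tested genes called higher and 11.4% called in either direction. Against TREM2-R47H, TREM2-KO had lower SESN1 (-0.64) and FAS, a death receptor (-0.43), and higher DDB2, a DNA repair protein (0.41), which is 3 of 23 genes beside 21.3% of all genes called. In the other comparisons 0 of the 23 were called by limma, with medians between -0.06 and 0.14.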
